A study of Mus musculus with 4 samples.

Results

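The genes described here encode 10 proteins of the actin cytoskeleton and its partners, taken by symbol from the 27998 genes of the count tables: the actins *Actb* and *Actg1*, the monomer-binding genes *Tmsb4x*, *Tmsb10* and *Pfn1*, the filament regulators *Cfl1*, *Coro1a* and *Capg*, the intermediate filament gene *Vim* and the LIM domain gene *Crip1*. The list was chosen by function and its rule used no level or test of these cells, but earlier results of these data were known. Their transcripts were counted in single blood cells of C57BL/6 mice that carried the MC-38 colon carcinoma. The mice were 6 to 8 weeks old at the start, and MC-38 experiments used females. Blood was taken on day 18 after tumor challenge from an untreated mouse, from a mouse given blocking anti-PD-L1 antibody on days 10, 13 and 17, from a mouse given agonistic anti-OX40 antibody with CpG on day 7, and from a mouse given both regimens (PDOX). The labels of the third library name OX40 alone, and it was taken as the anti-OX40/CpG arm of the regimen. T cells had been enriched by pan T cell isolation in consecutive rounds. The design text names 4 mice, read here as 1 mouse per library, and the sources used here do not state whether cells were pooled. Each group is 1 library, so treatment, mouse and library cannot be told apart.

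Actin is the main filament of the lymphocyte cortex. Monomers bound to thymosins and profilin form the reserve from which filaments grow, cofilin and coronin drive their disassembly, and capping proteins end their growth. Naive T cells crawl through lymph nodes with this machinery, and effector T cells use it to leave vessels, enter tissue and form contacts with target cells.

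The members include 2 pairs of close relatives. *Actb* (chr5:142903115-142907976, GRCm38.p6) and *Actg1* (chr11:120345687-120348495) encode the cytoplasmic beta and gamma actins, and their coding sequences were identical at 997 of 1125 aligned bases (88.6%). *Tmsb4x* (chrX:167207093-167213479) and *Tmsb10* (chr6:72957347-72958748) encode thymosins beta 4 and beta 10, which hold actin monomers. Both thymosin coding sequences are shown because the pair moved in opposite directions in effector cells. They were taken from the GENCODE M39 annotation of GRCm39 without the stop codon, 132 bases each, and capitals mark bases that differ between them or stand opposite a gap.
Tmsb4x: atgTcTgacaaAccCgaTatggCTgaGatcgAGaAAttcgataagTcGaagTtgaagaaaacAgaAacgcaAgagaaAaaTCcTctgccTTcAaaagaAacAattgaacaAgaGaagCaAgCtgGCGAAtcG
Tmsb10: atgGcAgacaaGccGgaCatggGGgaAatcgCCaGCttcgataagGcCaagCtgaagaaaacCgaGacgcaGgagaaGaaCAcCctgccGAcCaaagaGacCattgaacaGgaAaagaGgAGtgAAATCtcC
In their alignment of 133 positions, 94 were identical, 37 differed and 2 stood opposite a gap. Reads of the 3′ kit fall at transcript ends, which were not compared.

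A promoter is shown for *Actg1*, the only one of 9 members with a RefSeq promoter (all but *Actb*; GRCm38.p6) that held a CArG box, the sequence known to bind serum response factor. The window runs from 150 to 51 bases before the start on the minus strand (chr11:120348546-120348645), and capitals mark the box, 90 bases before the start.
Actg1 promoter: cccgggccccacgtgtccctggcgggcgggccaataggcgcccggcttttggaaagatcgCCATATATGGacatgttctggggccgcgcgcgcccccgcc
Of all 32851 mouse promoters, 250 bases before to 50 after a start, 1.63% held such a box on either strand. The match is a description of these letters and not evidence of binding.

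Of 5434 deposited cells, 5299 with 200 or more expressed genes were kept. Gates on marker transcripts took 2068 CD8 T, 854 CD4 T, 60 NK, 128 B cells and 87 monocytes, and 2102 cells fell in no gate. Most of the latter, 1634 cells, had a Cd3 UMI but none of Cd4 or Cd8. T cells were split into 1154 naive and 781 effector CD8 and 515 naive and 305 effector CD4 T cells by the sums of 7 naive genes (such as *Ccr7* and *Lef1*) and 9 effector genes (such as *Id2*, *S100a4* and *Cxcr3*). The authors had reported some of these genes, such as *Cxcr3* and *Lef1*, as differing between *Id2*-positive and *Id2*-negative T cells of this study. They also listed *Capg* and *Crip1* as raised in *Id2*-positive CD4 T cells, so the split is not independent of these members. Of 2922 gated T cells, 312 had sums within 1 UMI of each other and 167 were neither. No member was a gate gene. Sums of the genes that define the gates are given as a description and are no independent check. NK genes stood at 62.5 to 88.1 UMIs per 10000 in the NK gate against at most 2.04 in effector CD8 T cells. B genes stood at 122 to 135 in the B gate against at most 0.944 in naive CD4 T cells. Monocyte genes stood at 340 to 431 in the monocyte gate against at most 5.27 in naive CD4 T cells and 6.34 in the B gate. Median depth was 1494 to 1655 UMIs in naive and 1725 to 2321 in effector CD8 T cells, and the ribosomal share of UMIs was 47.6% to 51.2% in the former and 33.9% to 47.2% in the latter. The untreated library stood apart by its hemoglobin share, 7.99% of UMIs against 0.344% to 1.70% in the others. Barcodes shared between libraries accounted for 32 cells. Doublets were not called; instead, results were recomputed without the 5% of cells with the most UMIs.

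*Tmsb4x*, *Actb* and *Tmsb10* were among the most abundant transcripts of every gate, and *Capg* was the rarest member. Levels are UMIs per 10000 UMIs of all genes but mitochondrial, ribosomal and hemoglobin ones; each UMI is 1 captured transcript end, so levels are not scaled by gene length. Together the 10 genes took 6.49% to 8.01% of these UMIs in CD8 T cells, 7.14% to 7.90% in CD4 T cells, 8.17% to 9.05% in NK cells, 7.04% to 8.17% in monocytes and 4.97% to 5.65% in B cells. B cells therefore held the smallest share, below every library of every other gate. *Tmsb4x* ranked between 1 and 3 and *Actb* between 3 and 4 among all genes in all 7 subsets.

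*Tmsb4x* was highest in NK cells, at 393 UMIs per 10000 in the untreated library, 355 with anti-OX40/CpG and 428 in PDOX. Effector CD4 T cells followed at 275 to 347, effector CD8 T cells at 281 to 311 and monocytes at 272 to 297, and these 3 overlapped. Naive CD8 (235 to 270) and naive CD4 T cells (238 to 274) also overlapped, and B cells were lowest at 195 to 221.

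*Tmsb10* had another order. Naive CD8 T cells led with 97.0 (untreated library), 160 (anti-PD-L1), 187 (anti-OX40/CpG) UMIs per 10000 and, in PDOX, 123, and B cells were lowest with 43.3, 64.8 and 40.9 in the untreated, anti-PD-L1 and PDOX libraries. NK cells had 45.2, 106 and 50.4 in the untreated, anti-OX40/CpG and PDOX libraries. The range over libraries within a subset was wide, so that all neighbors in the order overlapped.

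*Vim*, the intermediate filament protein of mesenchymal and myeloid cells, was highest in monocytes (16.5, 30.5 and 19.4 in the anti-PD-L1, the anti-OX40/CpG and the PDOX library) and lowest in naive CD8 T cells (3.75 to 4.92). *Crip1*, a small LIM domain protein, was highest in effector CD4 T cells (37.4, 63.5 and 49.0) and monocytes (39.4, 56.7 and 25.3), which overlapped. *Capg*, which caps filaments and is known from macrophages, had 0.106 to 0.387 UMIs per 10000 in naive CD8 T cells against 4.13 to 5.82 in effector CD4 T cells and 3.01 to 5.59 in monocytes. In 134 droplets of the libraries with mostly hemoglobin UMIs, which should hold little T cell RNA but free RNA, *Capg* had 2 UMIs in 12728 (1.57 per 10000) and *Tmsb4x* 47 (36.9). The *Capg* level was thus not above the droplet level in naive CD8 T cells or naive CD4 T cells (0.902 to 1.47). The same held for NK cells of the untreated and anti-OX40/CpG libraries (1.10 and 0.977) and effector CD8 T cells there (1.23 and 1.45). *Capg* folds against naive T cells below therefore have a reference at or under the droplet level, which itself rests on 2 UMIs. Naive CD8 T cells lay well under that level, so it is not a floor for cells. How much *Capg* in the cells was free RNA was not tested. The *Tmsb4x* level was above that of the droplets in every gate. *Actg1* had 14.1 per 10000 in these droplets, against 13.2 in B cells of the untreated library and more in all other subsets.

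**Figure D1:**
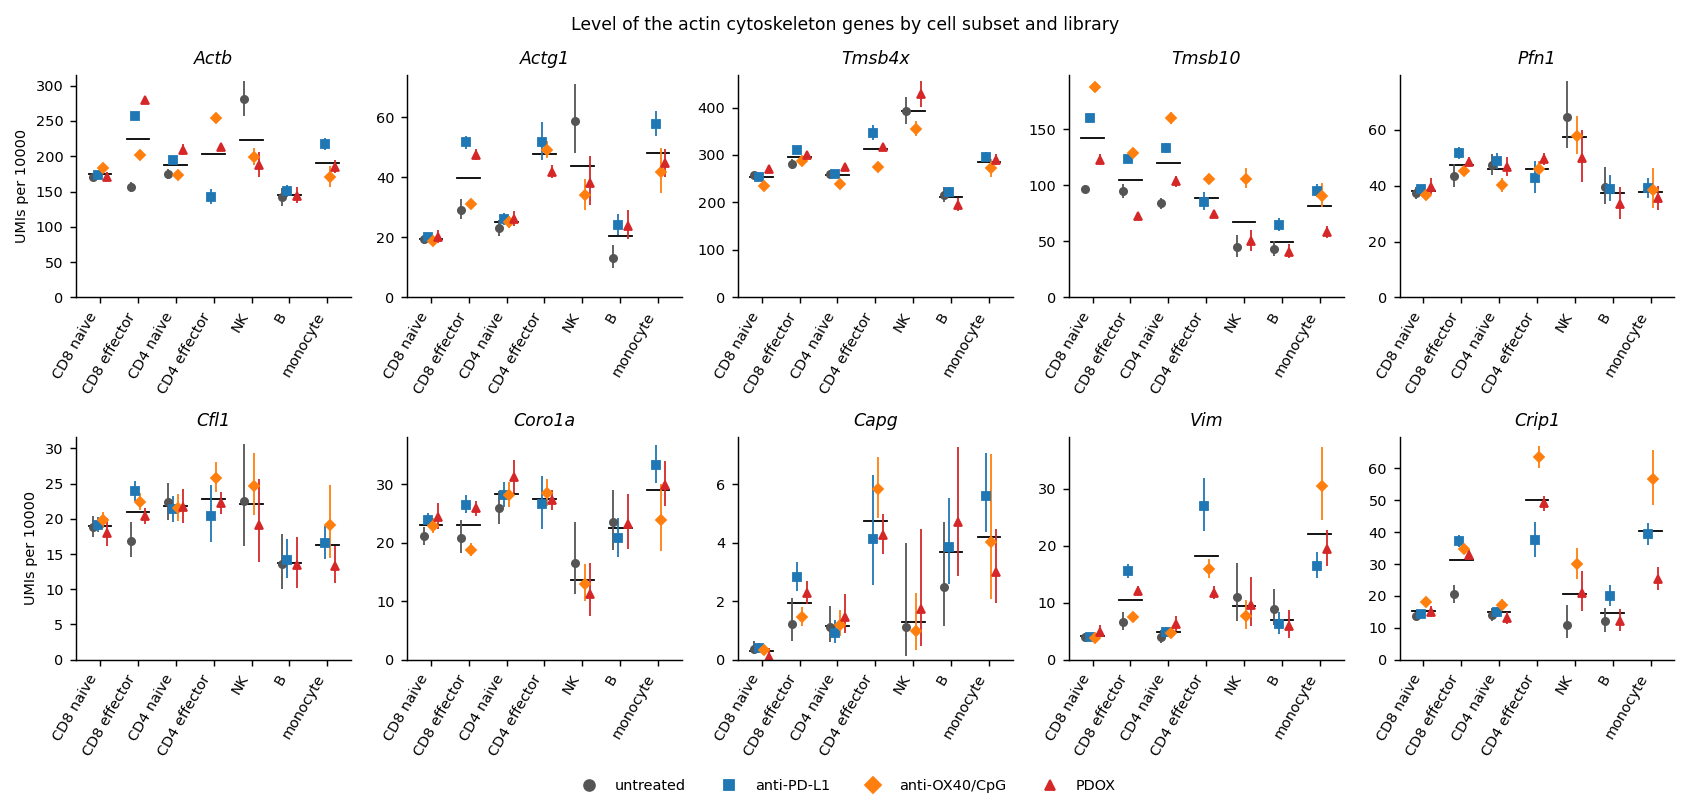
Level of each gene in UMIs per 10000 (vertical axis, from 0) in 7 cell subsets, with 1 point per library of at least 10 cells, exact Poisson 95% intervals for counting error and the mean of the libraries as a line. *Tmsb4x* is highest in NK cells, *Tmsb10* in naive T cells, and *Capg*, *Vim* and *Crip1* are lowest in naive T cells or B cells.

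*Actb*, a gene often used as a constant reference, varied most between single cells among the members with a mean of 1 UMI or more. In naive CD8 T cells thinned to 750 UMIs each, the middle 80% of cells spanned 1 to 28.9 *Actb* UMIs in the untreated library, 2 to 32 with anti-PD-L1, 2 to 31 with anti-OX40/CpG and 2 to 31.3 in PDOX. Medians were 7, 8, 8 and 10. *Tmsb4x*, with a higher level, spanned 12 to 26 in the untreated library around a median of 19. The spread of *Actb* was alike in the 4 libraries: 35.2% to 44.8% of cells had fewer than 6 *Actb* UMIs, 32.0% to 36.4% had 16 or more, and 23.3% to 29.5% lay between. These limits were set after the values were seen and mark ranges, not cell types.

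The variance of *Actb* UMIs over naive CD8 T cells was 9.57 to 11.5 times its mean, where counting alone gives 1. That of *Tmsb4x* was 1.54 to 2.54 times, that of *Tmsb10* 1.22 to 1.76 times and that of *Actg1* 1.05 to 1.49 times its mean. Among genes with a mean of 1 UMI or more (76 to 78 genes per library), *Actb* had the highest ratio in naive CD8 T cells of all 4 libraries, and *Malat1* came next with 4.97 to 8.45. *Actb* was also first in naive CD4 T cells of the 4 libraries (11.6 to 14.1). In effector cells *Ccl5* was above it. No member followed *Actb* closely from cell to cell: Pearson r of log2 UMIs with *Actb* over naive CD8 T cells, 1 value per library, was -0.03 to 0.19 for *Actg1*, 0.08 to 0.22 for *Pfn1* and -0.31 to 0.10 for *Tmsb4x*, and *Vim* had 0.34 in the PDOX library and -0.09 to 0.03 in the others. The highest value that held in all libraries was 0.19 to 0.28 for the tubulin gene *Tubb5*, among 978 genes. All these correlations were weak. Counting intervals of *Actb* levels leave this spread out and are therefore too narrow.

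**Figure D2:**
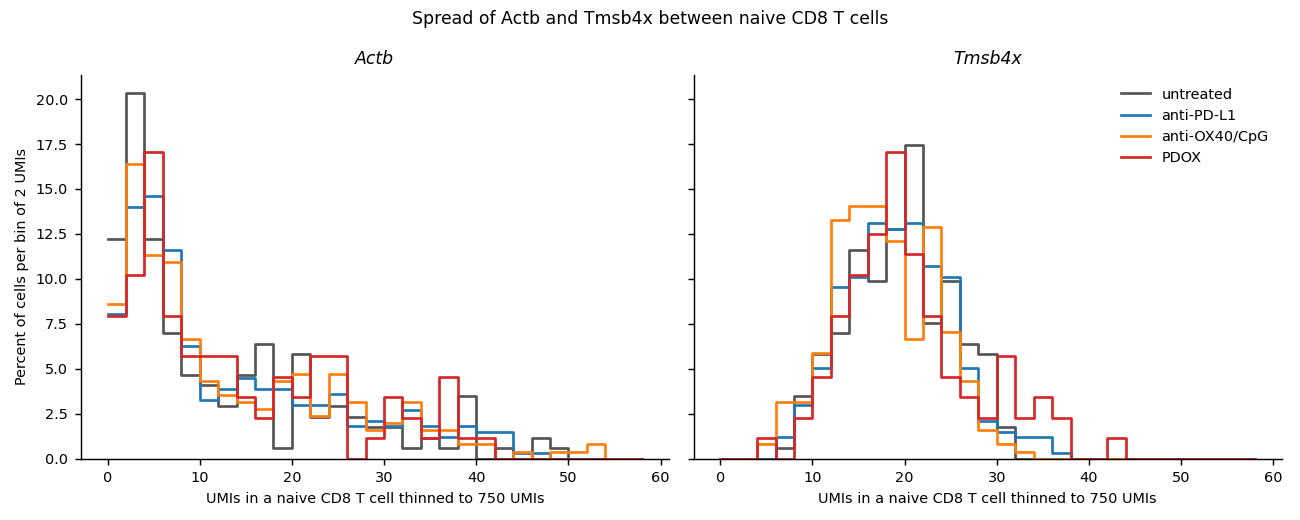
Percent of naive CD8 T cells (vertical axis) per bin of 2 UMIs for *Actb* (left) and *Tmsb4x* (right), each cell thinned to 750 UMIs, with 1 line per library (172, 336, 256 and 88 cells). *Actb* forms a peak below 8 UMIs with a long shelf that reaches 40 UMIs and more, and *Tmsb4x* forms a single peak near 20.

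Effector CD8 T cells were compared with naive CD8 T cells of the same library, as pairs of summed counts in all 4 libraries. Of the 10 members, 7 rose and *Tmsb10* fell, beside 9.14% of 6774 genes called higher and 5.58% called lower (edgeR, adjusted p under 0.05). The median log2 fold change was 0.39 over the members and about 0 over all genes tested (-0.00069). Depth and ribosomal share moved with this comparison (above). With cells thinned to 750 UMIs and gated and split anew, *Tmsb4x* (0.21, adjusted p = 0.245) and *Pfn1* (0.30, 0.0544) were not called. With mitochondrial, ribosomal and hemoglobin genes kept, *Actb*, *Tmsb4x*, *Tmsb10* and *Pfn1* were not called (adjusted p = 0.0635 to 0.332), and 4 of the 8 calls were left. Monocyte genes stood at 3.43 to 4.81 UMIs per 10000 in effector and 2.65 to 5.0 in naive CD8 T cells and overlapped, and NK genes at 1.17 to 2.04 and at most 0.106.

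The gamma actin gene *Actg1* had 19.4, 20.1, 18.7 and 20.2 UMIs per 10000 in naive CD8 T cells of the untreated, then the anti-PD-L1, then the anti-OX40/CpG, then the PDOX library (the order used below), and 29.3, 51.7, 31.3 and 47.6 in effector cells. The groups did not overlap, and the naive values were nearly equal. The log2 fold change was 1.07 ± 0.12 (SE, n = 4 libraries; edgeR adjusted p = 2.73e-08). *Actb* had 171, 173, 184 and 171 in naive and 156, 257, 202 and 280 in effector cells. It was lower in the effector cells of the untreated library and higher in the other 3 (log2 fold change 0.39 ± 0.12, adjusted p = 0.0179).

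Both thymosins moved, in opposite directions. *Tmsb4x* had 258, 253, 235 and 270 in naive and 281, 311, 288 and 299 in effector cells, a small increase that every library showed (0.29 ± 0.09, adjusted p = 0.0332). *Tmsb10* had 97.0, 160, 187 and 123 in naive and 94.7, 123, 129 and 72.9 in effector cells (-0.36 ± 0.10, adjusted p = 0.0117). The ratio of effector to naive *Tmsb10* was 0.975 (95% counting interval 0.908 to 1.05) in the untreated library and 0.593 to 0.768 in the treated libraries. *Pfn1*, profilin, which hands monomers to growing filaments, rose from 36.5 to 39.6 over the libraries to 43.4 to 51.7 (0.38 ± 0.09, adjusted p = 0.00404).

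*Capg*, *Vim* and *Crip1* rose most. *Vim* had 3.98, 3.89, 3.75 and 4.92 in naive and 6.70, 15.5, 7.58 and 12.1 in effector cells (1.42 ± 0.14, adjusted p = 4.21e-09). The untreated and anti-OX40/CpG libraries had the lower effector values. *Crip1* had 13.6, 14.5, 18 and 15 in naive and 20.5, 37.2, 34.7 and 32.9 in effector cells (1.10 ± 0.11, adjusted p = 7.66e-09). *Capg* had 0.378, 0.387, 0.320 and 0.106 in naive and 1.23, 2.81, 1.45 and 2.26 in effector cells (2.70 ± 0.21, adjusted p = 4.07e-11); the naive cells of the PDOX library held few *Capg* UMIs, so that its ratio of 21.4 had an interval of 5.81 to 178. *Cfl1*, the filament-severing cofilin, and *Coro1a*, the coronin of leukocytes, did not pass the test (0.22 with an interval of 0.02 to 0.42 and 0.05 with -0.14 to 0.25).

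*Actg1*, *Capg*, *Vim* and *Crip1* were called without each of the libraries in turn. The calls of the other members were lost without 1 library. Without anti-PD-L1, *Actb* (0.29, adjusted p = 0.290), *Tmsb4x* (0.25, 0.265), *Tmsb10* (-0.39, 0.0743) and *Pfn1* (0.33, 0.0933) were not called, and 4 members remained. Without anti-OX40/CpG, *Tmsb4x* (0.27, 0.247), *Tmsb10* (-0.32, 0.138) and *Pfn1* (0.38, 0.0534) were lost. Without PDOX, *Actb* (0.26, 0.325), *Tmsb4x* (0.30, 0.187) and *Tmsb10* (-0.26, 0.245) were lost. Without the untreated library, *Cfl1* was called as well (0.31, 0.00775), as it was with other genes for the split (0.33, 0.0185). The same smaller changes depended on other choices. With DESeq2, *Actb* (0.203) and *Tmsb10* (0.0816) were lost; without the 5% of cells with the most UMIs, *Actb* (0.0802), *Tmsb4x* (0.172) and *Tmsb10* (0.0862) were; and with no library term these 3 and *Pfn1* were (adjusted p = 0.0718 to 0.319). *Tmsb4x* was also lost with library size alone (0.0568) and with a stricter limit between naive and effector cells (0.0679).

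In CD4 T cells the untreated library had too few effector cells (7, with a minimum of 10), and 3 libraries entered. Of the members, 5 rose and *Tmsb10* fell, beside 7.97% of 4379 genes called higher and 6.46% called lower, with a median log2 fold change of 0.22 over the members and -0.0011 over all genes. Among the members *Capg* had the largest fold change and *Crip1* the smallest p. *Crip1* had 15, 17.2 and 12.9 UMIs per 10000 in naive and 37.4, 63.5 and 49.0 in effector cells of the anti-PD-L1, the anti-OX40/CpG and the PDOX library (1.76 ± 0.13, n = 3 libraries, edgeR adjusted p = 5.08e-13). *Vim* had 4.80, 4.65 and 6.22 in naive and 26.9, 15.9 and 11.7 in effector cells (1.75 ± 0.18, adjusted p = 2.29e-09). *Capg* had 0.902, 1.18 and 1.47 against 4.13, 5.82 and 4.26 (2.04 ± 0.21, adjusted p = 3.39e-09). For these 3 genes the groups did not overlap. Neutrophil genes (such as *Retnlg* and *Cxcr2*) stood at 1.18, 0.277 and 0.219 UMIs per 10000 in effector cells of these libraries. In naive CD4 T cells they stood at 0, 0.0408 and 0.0669. Monocyte genes had 4.72, 3.09 and 3.74 in effector against 4.02, 2.33 and 2.27 in naive CD4 T cells. Whether myeloid RNA added to the levels of members was not tested.

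*Actg1* had 26.1, 25 and 26.2 in naive and 51.9, 49.2 and 41.9 in effector CD4 T cells (0.92 ± 0.12, adjusted p = 2.75e-07). *Tmsb4x* had 260, 238 and 274 against 347, 275 and 316 (0.32 ± 0.10, adjusted p = 0.0216), and *Tmsb10* 133, 160 and 103 against 85.4, 106 and 74.2 (-0.53 ± 0.10, adjusted p = 2.32e-04). *Actb* had no common direction: 195, 173 and 209 in naive against 143, 255 and 213 in effector cells (0.09, interval -0.14 to 0.32). *Pfn1* (0.07, -0.15 to 0.30), *Cfl1* (0.13, -0.12 to 0.37) and *Coro1a* (-0.05, -0.29 to 0.19) did not pass the test either. Leaving out a library again touched the smaller changes. *Tmsb4x* was not called without anti-PD-L1 (0.21, adjusted p = 0.135), anti-OX40/CpG (0.39, 0.221) or PDOX (0.36, 0.249), *Tmsb10* not without anti-OX40/CpG (-0.48, 0.105), and *Actb* was called without anti-PD-L1 (0.30, 0.0233), whose effector CD4 T cells numbered 22. With thinned cells, the *Tmsb4x* change in CD4 T cells was 0.08 (adjusted p = 0.840). Thinning also left fewer effector CD4 T cells. There were 10, 48 and 98 in place of 22, 95 and 181 in the anti-PD-L1, the anti-OX40/CpG and the PDOX library. That call was also lost with DESeq2 (0.554), with no filter (0.288), without the 5% of cells with the most UMIs (0.184), with no library term (0.0569) and with other genes for the split (0.0878), and the *Tmsb10* call was lost with DESeq2 (0.0622).

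**Figure D3:**
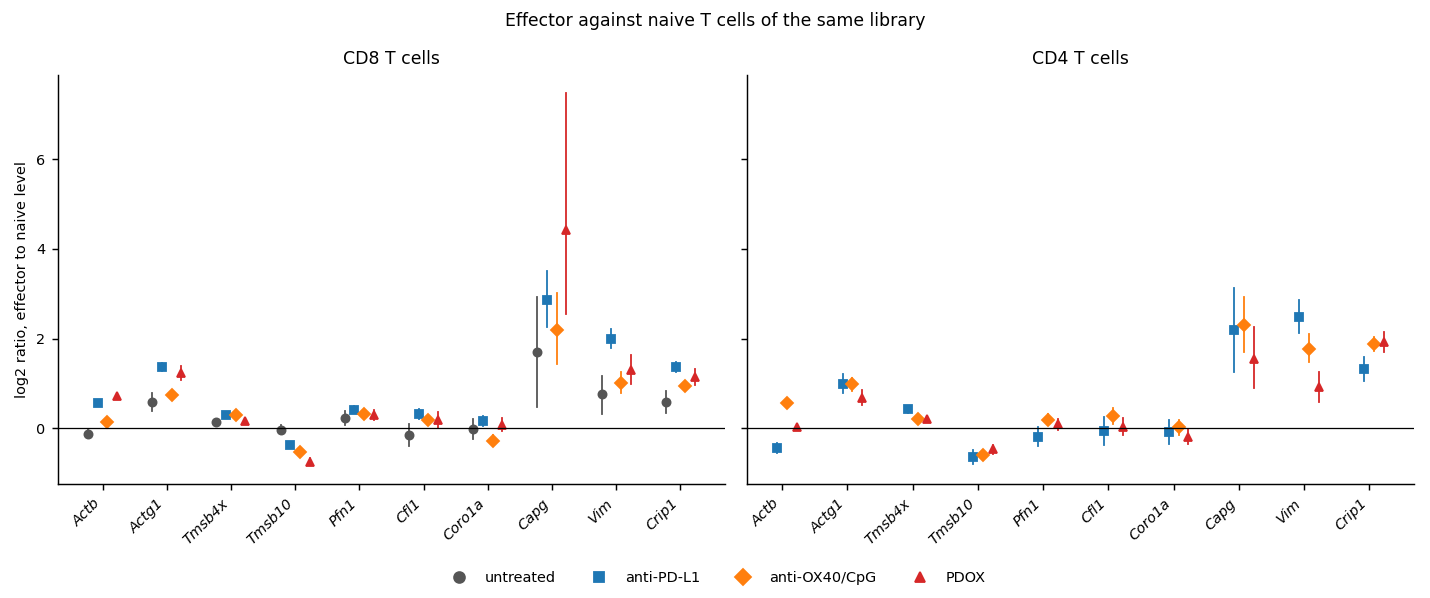
Log2 ratio of the effector to the naive level of each gene in CD8 (left) and CD4 T cells (right), with 1 point per library and exact conditional binomial 95% intervals for counting error; the line marks no difference. *Actg1*, *Capg*, *Vim* and *Crip1* lie above the line in every library and *Tmsb10* lies below it.

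The effector changes of CD8 and CD4 T cells were compared with each other in the 3 libraries that held both. No member passed this test, beside 0.172% of 5820 genes called as changing more toward higher levels in CD8 and 0.258% in CD4 T cells; 433 genes had an unadjusted p under 0.05. The largest differences (CD8 minus CD4 log2 fold change) were 0.70 for *Capg* (interval -0.08 to 1.47, edgeR adjusted p = 0.743), -0.52 for *Crip1* (interval -0.85 to -0.20, edgeR adjusted p = 0.205), 0.46 for *Actb* (0.12 to 0.81, adjusted p = 0.390) and 0.36 for *Pfn1* (0.10 to 0.61, adjusted p = 0.328). For *Tmsb4x* (0.03, -0.18 to 0.24) and *Tmsb10* (0.07, -0.17 to 0.32) the intervals were narrower. This test recovered 19.5% of genes simulated with a log2 difference of 1, and its calls depended on the processing. *Crip1* was called without the anti-PD-L1 library (-0.78, adjusted p = 0.0371), without the 5% of cells with the most UMIs (-0.58, 0.00675), with thinned cells (-0.69, 0.0291) and with other genes for the split (-0.73, 0.0152). *Actb* was called with no filter (0.48, 0.0418) and without the 5% of cells with the most UMIs (0.43, 0.0327).

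Naive CD8 and naive CD4 T cells differed in 5 members, all by small steps except *Capg*. *Tmsb10* was higher in naive CD8 T cells, with 97.0, 160, 187 and 123 against 83.8, 133, 160 and 103 in naive CD4 T cells (log2 fold change 0.28 ± 0.03, n = 4 libraries, edgeR adjusted p = 1.15e-18). *Actg1* was lower in naive CD8 T cells, with 19.4, 20.1, 18.7 and 20.2 against 23.1, 26.1, 25 and 26.2 (-0.32 ± 0.05, adjusted p = 8.5e-10). *Coro1a* (-0.25 ± 0.05, adjusted p = 1.66e-06) and *Pfn1* (-0.22 ± 0.04, adjusted p = 8.08e-07) were lower too. *Capg* had 0.378, 0.387, 0.320 and 0.106 against 1.10, 0.902, 1.18 and 1.47 (-1.71 ± 0.25, adjusted p = 5.47e-10). The direction of each of these was the same within all 4 libraries. Of 4612 genes, 4.81% were called higher and 3.97% lower. *Cfl1* lay at the threshold (-0.14, adjusted p = 0.0505) and was called under 5 alternatives (adjusted p = 0.00576 to 0.0461), and *Actb* was called without the anti-OX40/CpG library (-0.12, 7.61e-04) and with library size alone (-0.09, 0.0121). With thinned cells *Actg1* (-0.27, 0.0539), *Pfn1* (-0.17, 0.183) and *Coro1a* (-0.16, 0.338) were not called, and with no library term these 3 (adjusted p = 0.0511 to 0.159) and *Tmsb10* (0.530) were not, which left *Capg*. Both *Capg* levels were at or under the level of the droplets, which is not a floor for cells.

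NK cells, B cells and monocytes were each compared with the naive T cells of the same libraries; 3 libraries had enough cells for each. NK cells held more *Actg1* (58.9, 34.0 and 38.3 in the untreated, anti-OX40/CpG and PDOX libraries; log2 fold change 0.91 ± 0.15, n = 3, edgeR adjusted p = 1.34e-07), *Tmsb4x* (0.53 ± 0.14, adjusted p = 0.00216), *Vim* (0.96 ± 0.22, adjusted p = 2.68e-04) and *Pfn1* (0.44 ± 0.15, adjusted p = 0.0247). They held less *Coro1a* (16.5, 12.9 and 11.3; -0.96 ± 0.19, adjusted p = 5.89e-06) and less *Tmsb10* (-1.04 ± 0.15, adjusted p = 2.73e-10). In this comparison 6.08% of 4032 genes were called higher and 9.97% lower, and the scaling moved all genes: their median was -0.17 with TMM factors and -0.04 with library size alone. Relative to that median, *Actg1* was higher by 1.07, *Tmsb4x* by 0.70, *Vim* by 1.13 and *Pfn1* by 0.61, and *Coro1a* and *Tmsb10* stood at -0.79 and -0.88; with library size alone *Actb* was called as well (0.36, adjusted p = 0.0188). The ribosomal share of NK cells was 19.5% to 23.2%. The *Tmsb4x* call was lost without PDOX (0.48, 0.327), the *Pfn1* call without anti-OX40/CpG (0.39, 0.189) or PDOX (0.53, 0.150), and *Crip1* was called without the untreated library (0.74, 5.4e-05) and with 2 other scalings (0.44 and 0.57). The *Vim* call was lost with thinned cells (0.54, 0.272), with no filter (0.66, 0.113) and with DESeq2 (0.99, 0.0741), and the *Coro1a* call with DESeq2 (-0.94, 0.0597). *Tmsb4x* and *Pfn1* were lost with DESeq2 (0.280 and 0.489) and with no filter (0.719 and 0.928), and *Pfn1* also with thinned cells (0.0680) and no library term (0.0564).

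B cells differed from naive T cells in 6 members, 4 lower and 2 higher. *Tmsb10* differed most among the lower ones (-1.28 ± 0.11, n = 3 libraries, edgeR adjusted p = 3.25e-20), followed by *Cfl1* (13.5, 14.2 and 13.4 in the untreated, anti-PD-L1 and PDOX libraries; -0.51 ± 0.13, adjusted p = 0.00123), *Tmsb4x* (-0.31 ± 0.10, adjusted p = 0.0136) and *Actb* (-0.30 ± 0.10, adjusted p = 0.0181). *Capg* (2.48, 3.85 and 4.70; 2.69 ± 0.29, adjusted p = 2.09e-14) and *Vim* (0.62 ± 0.17, adjusted p = 0.00456) were higher. *Pfn1* (-0.15, adjusted p = 0.40), *Actg1* (-0.05, 0.85), *Coro1a* (-0.16, 0.41) and *Crip1* did not pass the test. Of 4273 genes, 10.3% were called higher and 10.7% lower. Without the anti-PD-L1 library, *Actb* (-0.30, 0.266), *Tmsb4x* (-0.33, 0.211) and *Vim* (0.66, 0.0543) were not called; without PDOX, *Actb* (-0.26, 0.223) and *Tmsb4x* (-0.23, 0.322) were not, and without the untreated library *Vim* (0.46, 0.129) was not. With thinned cells *Actb* (adjusted p = 0.0952), *Tmsb4x* (0.0879) and *Vim* (0.0518) were lost, with DESeq2 these 3 and *Cfl1* were lost (adjusted p = 0.242 to 0.559), and with no library term *Actb* (0.185) and *Tmsb4x* (0.160) were. With no filter on low counts *Vim* was lost (0.304), and *Pfn1* (-0.40, 0.0127) and *Coro1a* (-0.41, 0.0213) were called as lower.

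Monocytes, the myeloid cells among these, held more *Capg* (3.08 ± 0.26, n = 3 libraries, edgeR adjusted p = 1.6e-31), *Vim* (2.35 ± 0.15, adjusted p = 1.06e-49), *Crip1* (1.45 ± 0.14, adjusted p = 1.62e-22) and *Actg1* (57.8, 41.9 and 44.7 in the anti-PD-L1, the anti-OX40/CpG and the PDOX library; 1.28 ± 0.14, adjusted p = 3.69e-18). *Tmsb10* was lower here too (95.2, 90.9 and 58.3; -0.75 ± 0.14, adjusted p = 2.07e-07). The other 5 members did not pass. Of 4516 genes, 22.1% were called higher and 18.1% lower, so calls were common, and the median of all genes moved from -0.10 to -0.22 with library size alone. Relative to the former, *Vim* stood at 2.45, *Crip1* at 1.55, *Actg1* at 1.37 and *Tmsb10* at -0.65. Median depth was 1670 to 3444 UMIs in monocytes. *Tmsb10* was not called without PDOX (-0.82, 0.277), and *Coro1a* was called without anti-OX40/CpG (0.48, 0.00806). Without the 5% of cells with the most UMIs, *Capg* (1.20, 0.141) and *Crip1* (0.41, 0.0727) were not called and *Cfl1* was, as lower (-0.64, 0.00419). That setting left 9 monocytes in the anti-OX40/CpG library, under the minimum of 10, so the libraries compared also changed. With thinned cells *Tmsb4x* (0.30, 0.0177) and *Coro1a* (0.37, 0.0336) were called as higher and *Cfl1* (-0.48, 0.0182) as lower. Gated anew after thinning, the untreated library held 17 monocytes in place of 7 and reached the minimum.

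Ratios within a pair of relatives do not depend on the scaling. In naive CD8 T cells there were 0.114, 0.116, 0.102 and 0.118 *Actg1* UMIs per *Actb* UMI in the untreated, then the anti-PD-L1, then the anti-OX40/CpG, then the PDOX library, and in effector CD8 T cells 0.187, 0.201, 0.155 and 0.170. The gamma actin share of actin transcripts was thus higher in effector cells of every library, by 0.66 ± 0.12 on the log2 scale (SD, n = 4). In CD4 T cells the ratio was higher in effector cells of 3 of 3 libraries, with 0.134, 0.144 and 0.125 in naive and 0.363, 0.193 and 0.196 in effector cells, by 0.84 ± 0.53 (SD, n = 3). Monocytes had 0.241 to 0.266, above every naive T cell value. The *Tmsb10* to *Tmsb4x* ratio was lower in effector CD8 T cells of every library, with 0.377, 0.634, 0.798 and 0.456 in naive and 0.336, 0.396, 0.448 and 0.244 in effector cells (-0.64 ± 0.33), and in CD4 T cells, with 0.513, 0.672 and 0.377 against 0.246, 0.385 and 0.235 in the 3 treated libraries (-0.85 ± 0.19). An exact sign-flip permutation test (two-sided) gave p = 0.125 for both CD8 ratios and 0.25 for both CD4 ratios, in each case the smallest that so few libraries allow, so these designs cannot reach 0.05. Without the cells of most UMIs and with thinned cells, the CD8 actin difference was smaller (0.45 and 0.43).

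**Figure D4:**
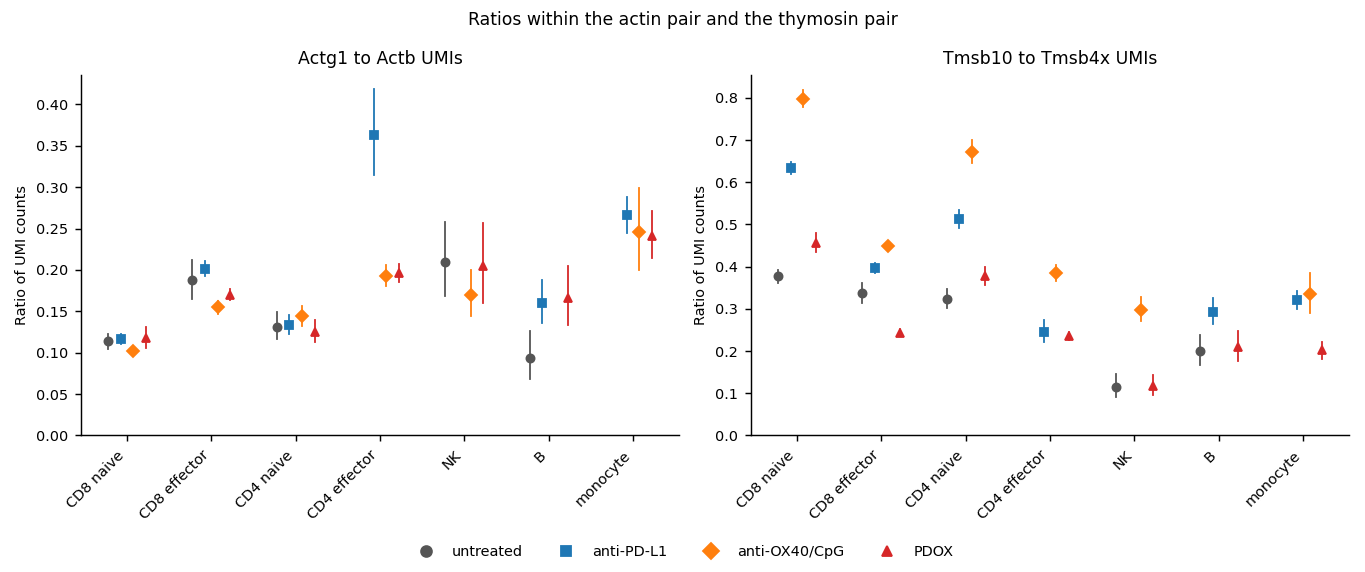
Ratio of *Actg1* to *Actb* UMIs (left) and of *Tmsb10* to *Tmsb4x* UMIs (right) in 7 subsets, with 1 point per library and exact binomial 95% intervals for counting error. The actin ratio is higher in effector than in naive T cells of each library and the thymosin ratio is lower; the anti-OX40/CpG library has the highest thymosin ratio in every subset where it has enough cells.

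The treated libraries were then set beside the untreated library. With 1 library per group there is no test, and the values describe these libraries. A gene was counted when its ratio passed 1.5 in either direction, among genes with 50 or more UMIs in the pair. In all CD8 T cells together, 4 members passed in PDOX (*Actg1*, *Capg*, *Vim* and *Crip1*), beside 21.4% of genes; 3 passed with anti-PD-L1 (*Tmsb10*, *Capg* and *Vim*), beside 12.8%; and 3 passed with anti-OX40/CpG (*Tmsb10*, *Capg* and *Crip1*), beside 15.1%. All of them were higher than in the untreated library.

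For most of these genes the difference of the whole CD8 T gate was not seen among naive cells. *Actg1* in CD8 T cells was 1.88 times its untreated level in PDOX (21.5 to 40.4 UMIs per 10000), but naive CD8 T cells had 1.04 times (19.4 to 20.2) and effector CD8 T cells 1.63 times (29.3 to 47.6). *Vim* was 2.22 times higher in the gate, 1.24 times in naive and 1.80 times in effector cells. Effector cells made up 23.6% of the UMIs of naive and effector CD8 T cells in the untreated library and 75.5% in PDOX. At the make-up of the untreated library, the PDOX ratio would be 1.23 in place of 1.88 for *Actg1*, 1.43 in place of 2.23 for *Vim*, 1.26 in place of 1.87 for *Crip1*, 1.06 in place of 3.0 for *Capg* and 1.17 in place of 1.51 for *Actb*. The result depended on which make-up was held constant. At the make-up of the PDOX library the ratios would be 1.52 for *Actg1*, 1.71 for *Vim*, 1.51 for *Crip1*, 1.70 for *Capg* and 1.58 for *Actb*.

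Within naive CD8 T cells no member with enough UMIs passed 1.5 in PDOX (11.8% of genes did), and *Tmsb10* was the 1 member of 9 to pass with anti-PD-L1 (9.29% of genes) and with anti-OX40/CpG (10.7%). In naive CD4 T cells *Tmsb10* passed with anti-PD-L1 (12.0%) and anti-OX40/CpG (12.9%), and *Vim* in PDOX (13.6%). Within effector CD8 T cells, *Actb*, *Actg1*, *Capg*, *Vim* and *Crip1* passed both with anti-PD-L1 (26.3% of genes) and in PDOX (28.1%), and *Crip1* with anti-OX40/CpG (23.3%). Of all CD4 T cells, *Tmsb10* and *Vim* were higher and *Capg* lower with anti-PD-L1 (11.4%). *Tmsb10*, *Vim* and *Crip1* were higher with anti-OX40/CpG (20.0%), and *Capg*, *Vim* and *Crip1* higher in PDOX (26.6%). The *Capg* ratio with anti-PD-L1 was 0.654, and its counting interval of 0.407 to 1.06 included no difference. The 98 untreated CD4 T cells include the 7 effector cells that were too few for the effector comparison. The *Capg* level of these effector cells was 9.98, against 1.10 in untreated naive CD4 T cells. The *Capg* level of all untreated CD4 T cells was 2.23, so these 7 cells raised the untreated reference above the naive level. Among naive CD4 T cells the *Capg* ratio with anti-PD-L1 was 0.818 (counting interval 0.400 to 1.73). The *Tmsb4x* level of the 7 cells was 844, against 259 in untreated naive CD4 T cells, and their ribosomal share 13.2% against 43.5%. Their Cd3 genes stood at 19.4 against 51.7 and neutrophil genes at 3.67 against 0.0787. What these cells were was not tested, nor was their effect on the ratios of other members. The untreated effector CD8 T cells numbered 59, and their *Actb* level was the lowest of the 4 libraries. Their ribosomal share was 47.2%, near the 47.6% of untreated naive CD8 T cells, against 33.9% to 41.6% in effector CD8 T cells of the treated libraries.

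*Tmsb10* differed between libraries in a way that all subsets shared. In each of the 7 subsets, the anti-PD-L1 and anti-OX40/CpG libraries with enough cells had more *Tmsb10* than the untreated and PDOX libraries. In naive CD8 T cells its level was 1.65 times the untreated level with anti-PD-L1 (counting interval 1.59 to 1.72) and 1.93 times with anti-OX40/CpG (1.86 to 2.0), and 1.27 times in PDOX (1.20 to 1.34). Monocytes had 95.2 and 90.9 with the single regimens and 58.3 in PDOX, and B cells 64.8 with anti-PD-L1 against 43.3 and 40.9. *Tmsb4x* in the same naive CD8 T cells stood at 0.911 to 1.05 times its untreated level. The hemoglobin share, highest in the untreated library and at 1.51% and 1.70% in the anti-OX40/CpG and PDOX libraries, did not follow this order. The ribosomal share did over the whole libraries, with 41.4% and 43.1% for the single regimens against 38.0% (untreated) and 34.6% (PDOX). It also did in naive CD8 T cells, with 47.6%, 49.5%, 51.2% and 49.1%, where its order over the libraries was that of the *Tmsb10* levels. In B cells, with 32.5%, 36.2% and 36.9% in the untreated, anti-PD-L1 and PDOX libraries, and in monocytes, with 21.1%, 26.4% and 24.1% in the anti-PD-L1, the anti-OX40/CpG and the PDOX library, it did not. Nor did it in effector CD8 T cells, with 47.2%, 36.7%, 41.6% and 33.9%, or naive CD4 T cells, with 43.5%, 44.5%, 48.0% and 45.4%. In NK cells and effector CD4 T cells the anti-OX40/CpG library was highest in ribosomal share (23.2% and 29.8%) and in *Tmsb10*. What set the libraries apart was not tested.

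**Figure D5:**
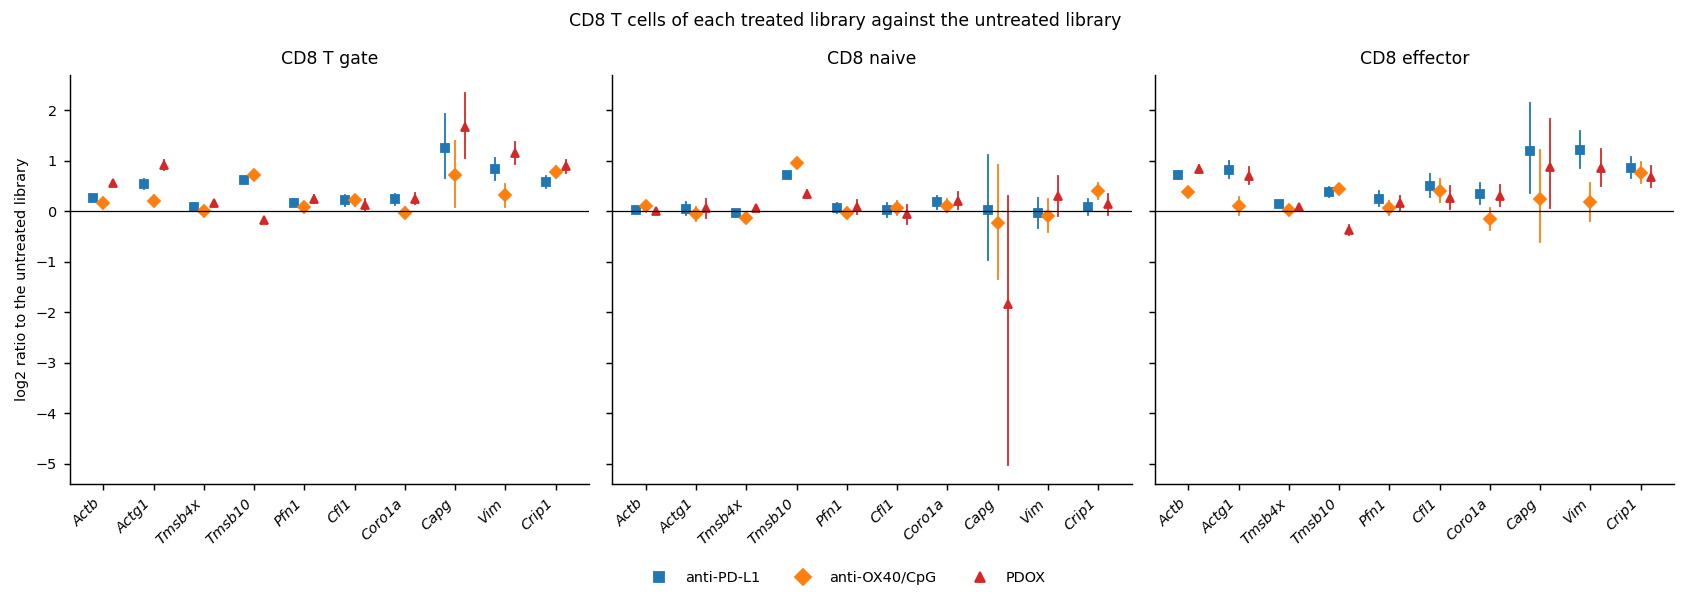
Log2 ratio of each gene's level in a treated library to the untreated library (vertical axis) in all CD8 T cells, naive CD8 T cells and effector CD8 T cells, with exact conditional binomial 95% intervals for counting error. In naive cells most points lie near 0. *Tmsb10* lies above it in every treated library, as does *Crip1* with anti-OX40/CpG (1.32 times, interval 1.18 to 1.47). *Capg* there rests on few UMIs.

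Other genes of the actin system were counted from a list of 133 genes in 11 roles, 131 of them in the tables. In effector against naive CD8 T cells, 31 of 110 tested genes were called higher (28.2%, beside 9.14% of all genes) and 6 lower (5.45%, beside 5.58%), with a median log2 fold change of 0.23. In CD4 T cells, 20 of 96 were called higher (20.8%, beside 7.97%) and 8 lower (8.33%, beside 6.46%), with a median of 0.30. The Arp2/3 complex, which branches filaments, had 5 of 9 subunits higher and none lower in CD8 and 2 of 9 in CD4 T cells. Myosins and tropomyosins had 5 of 12 and 6 of 11 higher, and none lower. The nucleation-promoting factors and the WAVE complex had 0 of 10 and 0 of 9 called. Cross-linking and bundling genes had 4 higher and 1 lower in both (of 11 and 9). Formins and Ena/VASP proteins had 2 higher and 1 lower of 6 in CD8, and 0 and 1 of 4 in CD4 T cells. Other genes of monomer binding and turnover had 2 and 1 of 13, and 1 and 1 of 9. Capping and severing genes had 2 and 0 of 9, and 0 and 1 of 9, coronins 2 and 0 of 4, and 0 of 3 called, and membrane and adhesion linkers 2 and 0 of 14, and 1 and 0 of 12. Other intermediate filament and LIM genes had 3 higher and 3 lower of 8, and 1 and 3 of 7. In CD8 T cells the largest increases were those of *Rhoc* (32 UMIs in effector against 2 in naive cells, a ratio of 17.3 with a counting interval of 4.41 to 149), *Plek*, pleckstrin (3.13 ± 0.32, adjusted p = 7.9e-09), *Lmnb1*, lamin B1 (2.56 ± 0.30, adjusted p = 9.8e-08), *Myo1f*, a class I myosin (2.28 ± 0.21, adjusted p = 1.3e-09), and *Crip2* (2.04 ± 0.63, adjusted p = 0.025). *Crip2* rested on 32 effector against 8 naive UMIs, and the untreated library held 0 in effector and 2 in naive cells. The largest decreases were *Pdlim4* (-1.72 ± 0.56, adjusted p = 0.034), *Actn1*, the cross-linker alpha-actinin 1 (-1.33 ± 0.16, adjusted p = 1.1e-07), *Evl*, an Ena/VASP protein (-0.58 ± 0.11, adjusted p = 3.6e-04), *Ssh2*, a cofilin phosphatase (-0.54 ± 0.12, adjusted p = 0.0016), and *Pdlim1* (-0.53 ± 0.15, adjusted p = 0.013).

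In CD4 T cells *Myo1f* (4.12 ± 0.50), *Rhoc* (35 against 3 UMIs, ratio 11.8, interval 3.71 to 59.8), *Lmnb1* (2.34 ± 0.45), *Dstn*, a relative of cofilin (1.93 ± 0.66, edgeR adjusted p = 0.044), and *Zyx*, zyxin (1.62 ± 0.28), rose most. *Pdlim4* (-4.29 ± 0.46), *Actn1* (-2.54 ± 0.26), *Pdlim1* (-1.34 ± 0.24), *Limd2* (-1.25 ± 0.14) and *Evl* (-1.21 ± 0.19) fell most. The change differed between CD8 and CD4 T cells for *Limd2* (0.72 ± 0.15, adjusted p = 0.030) and *Tagln2* (-0.80 ± 0.19, adjusted p = 0.047) alone among 104 list genes tested. Between naive CD8 and CD4 T cells, 4 list genes were higher in CD8, led by *Zyx* (1.04 ± 0.20), *Dock10* (0.84 ± 0.16) and *Tagln2* (0.46 ± 0.09), and 7 were lower, led by *Pdlim4* (-2.52 ± 0.26), *Gsn* (-1.0 ± 0.31) and *Flna* (-0.57 ± 0.17). Of 94 list genes these were 4.26% and 7.45%, beside 4.81% and 3.97% of all genes. Against naive T cells, 16 and 10 of 92 list genes were called higher and lower in NK cells (17.4% and 10.9%, beside 6.08% and 9.97% of all genes). In B cells these were 13 and 16 of 95 (13.7% and 16.8%, beside 10.3% and 10.7%), and in monocytes 43 and 13 of 98 (43.9% and 13.3%, beside 22.1% and 18.1%). NK cells had most over naive T cells of *Plek* (4.66 ± 0.57), *Myo1f* (3.77 ± 0.52) and the coronin *Coro2a* (2.83 ± 1.06, adjusted p = 0.048), and least of *Pdlim4* (0 UMIs against 102, at least 1.94-fold lower with a floor of 3 UMIs over the group), *Actn1* (3 against 550, a ratio of 0.0955 with an interval of 0.0196 to 0.280) and *Rhoh* (-2.48 ± 0.38). The *Coro2a* call rested on 5 UMIs in NK cells, with 0 in the PDOX library. B cells had most of *Swap70* (6.00 ± 0.59), the myosin *Myo1e* (13 UMIs against 2, a ratio of 75 with an interval of 17 to 685) and *Marcksl1* (4.33 ± 0.68), and least of *Actn1* (-2.83 ± 0.40), *Pdlim1* (-2.81 ± 0.47) and the formin *Diaph1* (-1.51 ± 0.54, adjusted p = 0.030). The B cells held 7 *Actn1*, 5 *Pdlim1* and 6 *Diaph1* UMIs. Monocytes had most of *Marcks* (6.46 ± 0.64), *Plek* (5.28 ± 0.42) and *Dstn* (3.81 ± 0.39), and least of *Ablim1* (-4.33 ± 0.40), *Actn1* (-3.80 ± 0.43) and *Pdlim4* (1 UMI). *Actn1* was thus among the lowest in all 3.

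Likeness of pattern was measured as Pearson r of log2 levels over the 24 subset and library profiles, among 1867 genes with 500 or more UMIs; profiles of a library share its depth and RNA, so r is a description. *Vim* was most like *Pglyrp1* (0.91), *Arpc5* (0.89) and *Prr13* (0.88). *Actg1* was most like *Anxa2* (0.90), *S100a6* (0.89) and *Cd48* (0.85), and *Tmsb4x* most like *H2afz* (0.90), *Lrrfip1* (0.88) and *Tmbim6* (0.87). *Crip1* went with *S100a11* (0.85), the gate gene *S100a4* (0.85) and *Clic1* (0.83), and *Coro1a* with *Ifi27l2a* (0.84), *Eif4a1* (0.82) and *Ssbp1* (0.81). *Tmsb10* was nearest to *Cox7b* (0.83), *Uqcr10* (0.82) and *Bola2* (0.80), and *Cfl1* to *Rinl* (0.83), *Myl6* (0.82) and *Ndufa13* (0.81). *Pfn1* was nearest to *Dok2* (0.81), *Kcnab2* (0.77) and *Myl6* (0.76), and *Capg* to *Vamp8* (0.78), *Arpc5* (0.77) and *Serinc3* (0.76). *Actb* had the weakest neighbors, *Arl6ip1* (0.73), *Psmb3* (0.69) and *S100a13* (0.68). Among the members themselves, *Actg1* and *Vim* were most alike (0.79), *Actb* and *Actg1* had 0.63, and *Tmsb10* ran against *Capg* (-0.52).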

How the data were processed

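The authors made 1 library per group by 10x Chromium 3′ chemistry (version 2), ran Cell Ranger 2.1.1 and deposited raw UMI counts of every gene in every cell. The submitters' processing notes name mm10 and Seurat 2; the annotation is not given in the sources used here. The deposited libraries held 2392650 to 4969885 UMIs.

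Cells with 200 or more expressed genes were kept and gated on marker UMIs: CD8 T and CD4 T cells by Cd3 and one coreceptor without the other; NK cells by at least 2 of 6 NK genes with no UMI of *Cd3d*, *Cd3e* or a coreceptor; B cells by at least 2 of 5 and monocytes by at least 3 of 6 genes with no Cd3 UMI. Naive cells had at least 2 naive and effector cells at least 3 effector UMIs, each above the other sum. Levels leave out 13 mitochondrial genes, 102 ribosomal genes and 10 genes of hemoglobin. UMIs were summed per library and subset of at least 10 cells and tested with edgeR 4.0.16 (R 4.3.3; TMM, filterByExpr, quasi-likelihood F test, Benjamini-Hochberg adjustment over all genes tested), with the library as a block and without gate genes. All 10 members passed the filter in every comparison. P-values rest on 3 or 4 libraries of differently treated mice, with 2 to 6 residual degrees of freedom per gene. edgeR moderates each gene's dispersion with that of all genes tested. P-values and SEs therefore do not measure a gene's own spread between libraries alone. Fold change intervals are ± 2 SE. Levels have exact Poisson and ratios exact conditional binomial 95% intervals, which cover counting error only.

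The fits were tested on simulated counts in which 200 genes had a true log2 difference of 1. They recovered 66.5% (effector CD8), 42.5% (effector CD4), 78.5% (naive CD8 against CD4), 12.5% (NK), 29.5% (B) and 34% (monocytes), with 0 to 6 false calls.

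The members, gates and lists were chosen with earlier results of these data known. All 10 members are named throughout. Of the other actin genes, the 5 largest called changes each way are named in the effector comparisons and up to 3 in the others. Gene positions and promoters are from RefSeq (GRCm38.p6). Alternatives were DESeq2 1.42.0, other scalings, filters, limits and splits, and leaving out each library. Counts by role are given for the effector comparisons; those of 1 role are not reported here.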

Additional observations from a re-analysis of the deposited data

How the results depend on the processing

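Of the results of single members under alternatives, 895 kept their direction and side of the threshold, 77 lost and 27 gained a call, and none reversed. *Actg1*, *Capg*, *Vim* and *Crip1* were called in both effector comparisons under every alternative run. Members called in the CD8 effector comparison numbered 8, and 4 with mitochondrial, ribosomal and hemoglobin genes kept, 5 without the cells of the highest UMI counts, 4 with no library term and 4 to 9 leaving out 1 library. The CD4 count of 6 ranged from 4 to 6 leaving out 1 library. For the difference between CD8 and CD4 T cells the count of 0 became 1 with no filter on low counts, 2 without the cells of the highest UMI counts, 1 with thinned cells, 1 with other genes for the split and 0 to 1 leaving out 1 library. For naive CD8 against CD4 T cells, 5 became 1 with thinned cells and 1 with no library term (5 to 6 leaving out 1 library). For NK cells, 6 became 2 with DESeq2 and 3 with no filter (4 to 7), for B cells 6 became 2 with DESeq2 and 3 with thinned cells (3 to 5), and for monocytes 5 became 8 with thinned cells (4 to 6). The mean summed share of CD8 T cells, 7.60%, was 3.99% with all genes kept in the denominator, 7.39% without the cells of the highest UMI counts and 7.29% thinned, and that of CD4 T cells, 7.70%, was 4.54%, 7.47% and 7.32%. Thinning left 0 members past 1.5 in naive CD4 T cells of PDOX. The CD8 actin ratio difference of 0.66 was 0.45 without the cells of the highest UMI counts and 0.43 thinned. Genes called over all alternatives ranged from 295 to 1154 (997 as reported) for effector CD8, 134 to 737 (632) for effector CD4, 1 to 84 (25) for their difference, 98 to 525 (405) for naive CD8 against CD4, 247 to 756 (647) for NK cells, 429 to 1020 (900) for B cells and 764 to 2086 (1817) for monocytes; the lowest counts came with thinned cells, DESeq2 or no library term. Thinning removes UMIs and cells and redraws the subsets, and leaving out a library removes samples. In monocytes, thinning and leaving out the cells of the highest UMI counts also changed which libraries reached 10 cells. Which of these moved a count was not tested, nor was the cause for the other alternatives.

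The tests between subsets were paired by library, and the counts with no library term are those without that pairing. Between treatments no paired analysis was possible because each group is 1 library. Depth limits *Capg* in naive CD8 T cells, where each library held 2 to 28 UMIs.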
